A study of Caenorhabditis elegans with 2 samples.

Results

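The genes described here are the C. elegans genes whose names begin with his-, which encode the histones. Ensembl release 115 (assembly WBcel235, the same sequence as ce11) annotates 72 of them among 19973 protein-coding genes of the nuclear chromosomes. Each gene was given a window that starts 1000 bp before its annotated 5′ end and stops 200 bp after it, and the windows of a pair of histone genes read in opposite directions from a shared upstream sequence were counted once. This gave 41 histone windows, of which 31 hold such a divergent pair and 10 hold a single gene. For the genome, pairs were formed among all protein-coding genes, which gave 17413 windows, most of a single gene. In that pairing 2 histone windows have a partner that is not a histone gene. The window of a histone pair spans 1632 to 1773 bp and that of a single gene 1201 bp, so shares by window are not at equal length. Ensembl gives several histone genes the same name, so the 72 genes carry 50 distinct Ensembl names, and the gene symbols used here come from RefSeq by position.

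The series measured where MADF-2 lies on chromatin in late embryos. The worms were of strain OP587, with genotype unc-119(tm4063) III; wgIs587, and stably carried MADF-2 with a GFP-FLAG tag at its C-terminus; mixed-sex embryos were taken 3 h after synchronisation by bleaching. Sonicated chromatin was precipitated with an antibody against GFP in 2 biological replicates, which form 1 group. The tag was carried by an inserted transgene in 1 strain, so the lists describe the tagged protein, and in whole embryos fewer cells that hold it and less of it per cell cannot be told apart.

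Histones are the proteins around which nuclear DNA is wrapped. Most histone genes are replication-dependent: they lie in clusters of near-identical copies, are transcribed when DNA is copied, and give messenger RNAs that end in a stem-loop in place of a poly(A) tail. Variant genes, such as those for H3.3, commonly have introns and are used outside DNA replication. MADF-2 is named for the MADF domain, a DNA-binding domain of the Myb/SANT type known from Drosophila Adf1.

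The region lists were read as deposited for ce11. The pooled list and the list of replicate 1 hold 30000 regions each and that of replicate 2 holds 27350, and all 3 mix peaks with background. The optimal list holds the 772 pooled regions that passed the authors' reproducibility filter, and these are the 772 of highest signal value. The signal value is the authors' own score for a region, of unknown scale, and was used only to rank regions within a list. A region was assigned to a gene when its summit, the point of highest signal, lay in the window. The sequencing depth is unknown, so no interval on a single value can be given.

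MADF-2 optimal regions lay at 3 of the 41 histone windows: the divergent pairs his-67/his-68 and his-61/his-62, and the single gene his-37. That is 7.32% of histone windows, beside 2.43% of all windows, most of which hold a single gene and are shorter. By gene, 5 of 72 histone genes (6.94%) had an optimal summit, beside 2.81% of all protein-coding genes. The counts are small, and 1 window more or less would move the share of histone windows by a large part of itself. All 5 genes are replication-dependent core histone genes by the list used here; they encode H4 (his-67 and his-37), H2A (his-68 and his-61) and H2B (his-62). None of the 15 replication-dependent H3 genes and none of the 8 variant genes had an optimal summit. At the 2.81% of all genes, sets of these sizes would commonly have none, so these counts do not set either set apart.

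The DNA at some of these summits is shown because a short word, GTGTCCC, recurs in it, and a second word, CATTCGG, recurs in histone promoters. Each line holds a base of the plus strand of ce11 (WBcel235) with 50 bases on either side, read from the RefSeq sequence. The capitals mark both words, which were picked out by reading these sequences and so are not independent of them. The his-37 sequence holds GTGTCCC alone, and that of his-38/his-40 holds neither word. The summit of his-67/his-68 is described without its sequence. The his-61/his-62 and his-37 sequences are centred on optimal summits, at chrIV:7486354-7486454 and chrV:9546958-9547058. The his-31/his-32 and his-38/his-40 sequences are centred on weaker pooled summits, at chrIV:8334145-8334245 and chrX:7309930-7310030. The last 2 lie midway between the 5′ ends of his-51/his-52 and of his-21/his-22, at chrV:8850267-8850367 and chrV:8892362-8892462, where no list holds a region.
his-61/his-62: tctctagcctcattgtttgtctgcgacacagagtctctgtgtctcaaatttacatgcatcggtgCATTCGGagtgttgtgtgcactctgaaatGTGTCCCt
his-37: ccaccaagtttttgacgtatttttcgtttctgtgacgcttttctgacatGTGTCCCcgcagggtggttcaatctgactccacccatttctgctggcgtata
his-31/his-32: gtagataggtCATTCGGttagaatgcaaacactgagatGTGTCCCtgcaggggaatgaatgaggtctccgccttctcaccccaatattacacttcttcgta
his-38/his-40: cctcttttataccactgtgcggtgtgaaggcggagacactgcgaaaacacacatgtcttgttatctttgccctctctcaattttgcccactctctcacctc
his-51/his-52: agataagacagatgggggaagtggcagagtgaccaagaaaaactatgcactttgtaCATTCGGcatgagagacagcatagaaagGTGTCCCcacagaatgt
his-21/his-22: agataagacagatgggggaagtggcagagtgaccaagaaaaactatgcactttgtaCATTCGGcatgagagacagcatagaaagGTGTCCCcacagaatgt
The last 2 sequences are identical, and this run of bases occurs at 4 places in the genome.

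The pair his-67/his-68, for H4 and H2A, held the strongest region of any histone window. Its signal value was 142 in the pooled list, 87.9 in replicate 1 and 56.1 in replicate 2, at ranks 156, 127 and 281. The region covers 9988709 to 9989104 on chromosome I, and its summit at 9988907 lies between the 368 bp that separate both 5′ ends, 144 bp upstream of his-67 and 225 bp upstream of his-68. It was high in both replicates, among the 772 strongest of each, and the replicate summits lay 24 and 2 bp from the pooled one. The window of alg-5, an Argonaute gene next to the pair, holds the same summit.

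The gene his-37 encodes H4 and lies beside the divergent pair his-35/his-41. Its region had a signal value of 131 in the pooled list, 77.7 in replicate 1 and 53.0 in replicate 2, at ranks 195, 164 and 321. It covers 9546810 to 9547205 on chromosome V, with the summit at 9547008, 97 bp upstream of the 5′ end. The replicate summits fell 1 and 0 bp from it, the closest match of the 3 optimal regions.

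The pair his-61/his-62, for H2A and H2B, had the weakest of the 3 regions. Its signal value was 92.0 in the pooled list, 55.9 in replicate 1 and 46.8 in replicate 2, at ranks 407, 340 and 414. The region covers 7486206 to 7486601 on chromosome IV, with the summit at 7486404, 187 bp upstream of his-61 and 141 bp upstream of his-62. The median signal value of all 772 optimal regions was 95.2, so his-67/his-68 and his-37 lie above it and his-61/his-62 just below. No histone window held a region near the threshold: the lowest optimal region in the genome had a signal value of 69.6 and the next pooled region 69.5, while the next histone window after his-61/his-62 had 52.1.

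**Figure D1:**
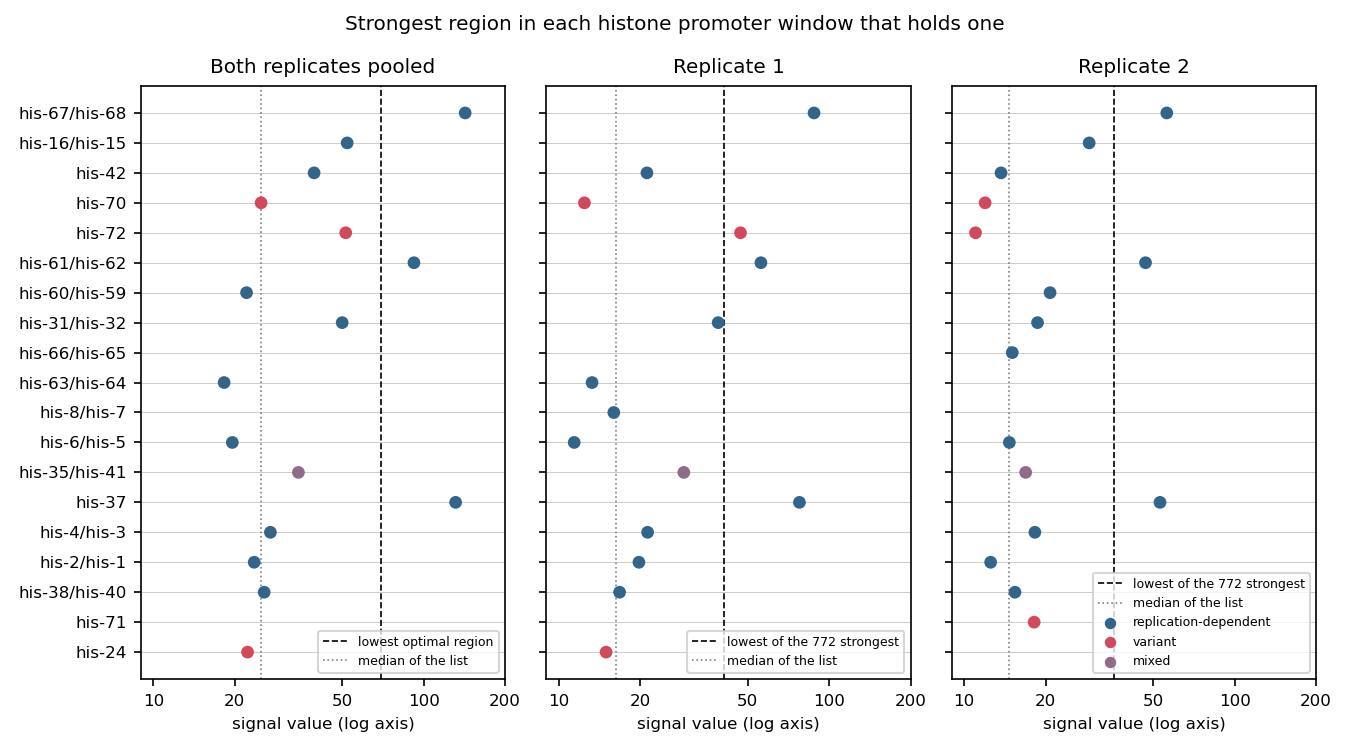
Signal value (log axis) of the strongest region in each of the 19 histone windows that hold a summit in any list, in the pooled list and in each replicate, which may be at different sites in the window; colours give the class, dashed lines the lowest optimal or 772nd value and dotted lines the list's median. The windows of his-67/his-68, his-61/his-62 and his-37 lie to the right of the dashed line in all 3 panels, and his-72 does so in replicate 1.

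Both replicates gave the same 3 windows when each was reduced to its own 772 strongest regions. The optimal list was made from these same replicates, so high ranks in both, here and at the 3 regions above, partly follow from that selection. Replicate 2 gave these 3 windows alone, 7.32% of histone windows beside 2.48% of all windows. Replicate 1 gave them and his-72, 4 windows or 9.76%, beside 2.22% of all windows. The gene his-72 encodes the variant H3.3. Its pooled summit lies 4 bp inside the gene, with a signal value of 51.5, and replicate 1 had a summit 12 bp upstream of the 5′ end with 47.0, at rank 524. Replicate 2 had no region there: its 1 summit in the window lies 698 bp upstream, with a signal value of 11.0. The strong region at his-72 thus comes from replicate 1 alone.

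Summits of any strength were about as common in histone windows as elsewhere in the pooled list. Histone windows are more often pairs, and so longer, than all windows, and the shares below are not adjusted for this. A pooled summit of any strength lay in 16 of 41 histone windows (39%), beside 35.2% of all windows. Summits in both replicate lists lay in 12 histone windows (29.3%), beside 19.6% of all windows, a small count that fell to 8 with windows from 500 bp upstream to 100 bp downstream. This count asks for a summit anywhere in the window, so the replicates need not share a site, as at his-72. No list held a summit in 22 histone windows (53.7%), beside 49.1% of all windows. Since these lists include background, a region outside the optimal list does not show binding.

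Among the weaker windows, his-31/his-32, for H4 and H3, had a signal value of 49.9 in the pooled list, 38.9 in replicate 1 and 18.7 in replicate 2. Its summit lies 212 bp upstream of his-31 and 110 bp upstream of his-32, between both 5′ ends. Replicate 1 ranked it 902nd, just outside its 772 strongest. The window of his-16/his-15 reached 52.1 in the pooled list and 29.0 in replicate 2, and had no summit in replicate 1. That summit lies 933 bp upstream of his-15, beyond his-16 and outside the cluster. The single H3 gene his-42 had a pooled signal value of 39.3, 765 bp upstream of its 5′ end and within 300 bp of an annotated snRNA gene, the only histone summit so placed.

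The other replication-dependent windows with pooled summits lay between 18.3 and 27.1, around or below the pooled list's median of 25.0. The pair his-4/his-3 reached 27.1, his-38/his-40 25.7, his-2/his-1 23.6, his-60/his-59 22.1, his-6/his-5 19.6 and his-63/his-64 18.3. The pair his-8/his-7 had a summit in replicate 1 alone, at rank 15547, and his-66/his-65 in replicate 2 alone, at rank 12570. None of these 8 pairs was among the 772 strongest regions of any list, and 2 of them had no pooled summit.

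Pooled summits lay in the windows of 4 of the 8 variant genes (50%), beside 35.7% of all protein-coding genes, a small count near that share: his-72 and his-70, which encode H3.3-type proteins, his-24, a linker histone H1 gene, and his-35, an H2A variant gene. The his-35 summit, with a signal value of 34.4, is shared with the H2B gene his-41 across the 247 bp between them. Signal values were 25.0 at his-70, where the summit lies 198 bp inside the gene, and 22.3 at his-24, 21 bp upstream. The H3.3-type gene his-71 had a summit in replicate 2 alone, with a signal value of 18.1. No list held a summit for his-69 and his-74, also H3.3-type, or for the short gene his-73.

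**Figure D2:**
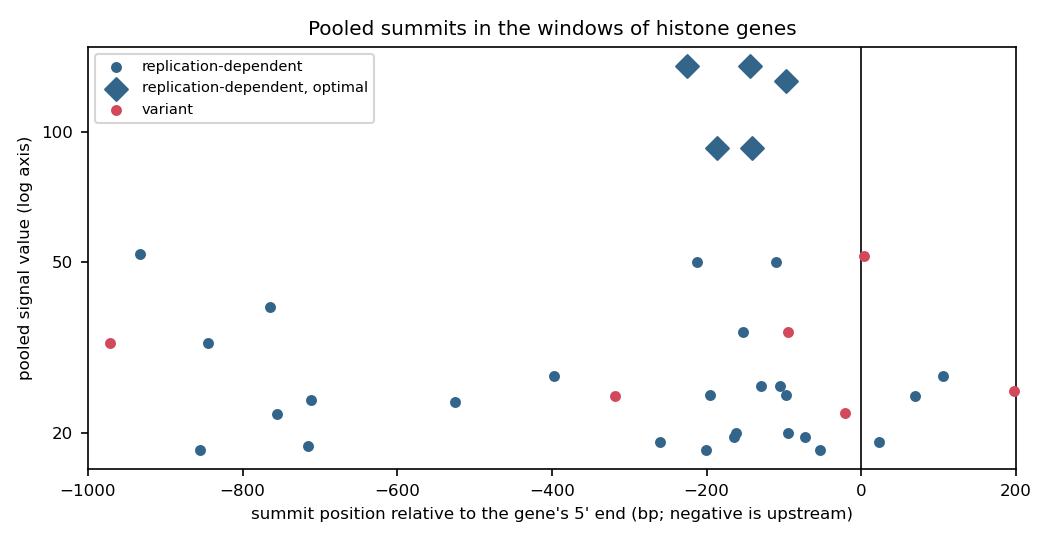
Signal value of pooled regions (log axis) against the position of the summit relative to the 5′ end of the histone gene (bp; negative is upstream), with 1 point per summit and gene, so that a summit between a divergent pair appears at both genes. Optimal summits (diamonds) lie 97 to 225 bp upstream, while the weaker ones spread over the whole window.

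Summit positions centred on the proximal promoter. Across 24 pooled summits and the genes whose windows hold them (37 pairs of a summit and a gene), the median distance was 162 bp upstream, with quartiles at 95 and 398 bp. For the 3 optimal summits and their 5 genes it was 144 bp, within 97 to 225 bp. Of the 11 divergent pairs with a pooled summit, 9 had one between their 5′ ends. The other 2, his-16/his-15 and his-2/his-1, had theirs elsewhere in the window.

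The histone loci differ from most of the genome in how much of their sequence is repeated. To measure this, every stretch of 36 bases (a word) in a window was checked for other occurrences in the genome on either strand. In the median histone window 56.4% of words occurred once, against 100% in the median window of the genome. In 20 of 41 histone windows fewer than 50% of words occurred once, which holds for 2.94% of all windows. A read that lies wholly in repeated sequence matches more than 1 place, and the sources used here do not say how the authors' lists treated such reads.

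Listed regions were found almost wholly in the histone windows with mostly single-copy sequence. Of the 20 windows under 50%, 1 held a pooled summit (5%), beside 5.27% of all windows that repeated. The 1 was his-16/his-15, with its summit outside the cluster. Of these 20 windows, 18 had no summit in any list and none had an optimal one. Of the 13 windows from 50 to 90%, 10 held a pooled summit (76.9%), beside 27.5% of all windows in that range. In those 13, 1 held an optimal summit, at his-61/his-62 (7.69%), beside 2% of all windows in that range. Of the 8 windows at 90% or more, 5 held a pooled summit (62.5%), beside 37.1% of all windows that unique. In those 8, 2 held an optimal summit (25%), beside 2.55% of all windows that unique. The 3 of the 8 without a pooled summit were the H3.3-type genes his-69, his-71 and his-74. The part of read placement in these counts was not tested.

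**Figure D3:**
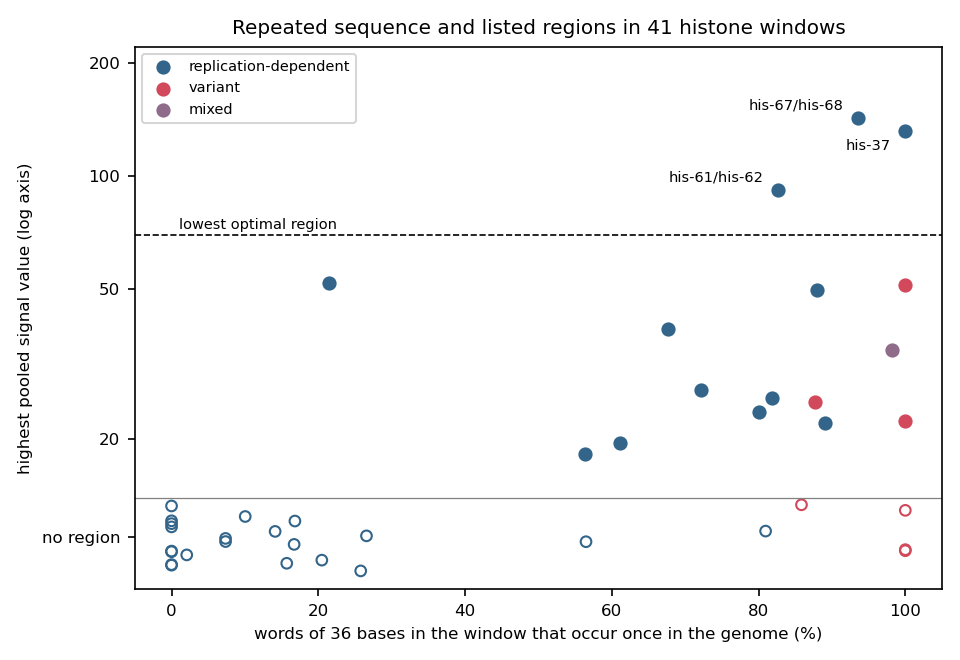
Highest pooled signal value (log axis) of each of the 41 histone windows against the share of its 36-base words that occur once in the genome; open circles below the line mark windows with no pooled region, spread vertically at random for visibility. Windows under 50% hold 1 pooled region, at his-16/his-15, and the 3 optimal windows lie above 80%.

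The same split appeared between the upstream sequences of the divergent pairs. These are 227 to 368 bp long, with a median of 258 bp. In 14 pairs the whole sequence between the 5′ ends occurs once in the genome, and 10 of these had a pooled summit in the window, beside 35.2% of all windows. A sequence that occurs once as a whole can still have near copies. In the 4 without a pooled summit, the 36-base words there that occur once were 16.1% at his-46/his-45 and at his-55/his-56, 1% at his-17/his-18 and 79.4% at his-8/his-7. In the other 17 pairs it occurs more than once, and 1 had a pooled summit, again his-16/his-15.

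By position the 72 genes fall into 13 groups of neighbours, with under 20 kb between adjacent genes, and 5 single genes. The group of 13 genes on chromosome II (13817760 to 13828697) had no summit of any list inside its 10.9 kb, where the genome's mean density of 0.299 pooled summits per kb would place 3.27. On chromosome V, the group of 6 genes from his-50 to his-53 (8847393 to 8854053) and the group of 8 from his-28 to his-18 (8889488 to 8898539) also had none, where 1.99 and 2.71 would stand at that density. In these 3 groups the share of words that occur once was 7.05%, 0% and 1.08%. The group of 8 genes from his-47 to his-57 on chromosome IV had no pooled summit in its 4 histone windows, while 4 lay elsewhere in its span of 17.6 kb.

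**Figure D4:**
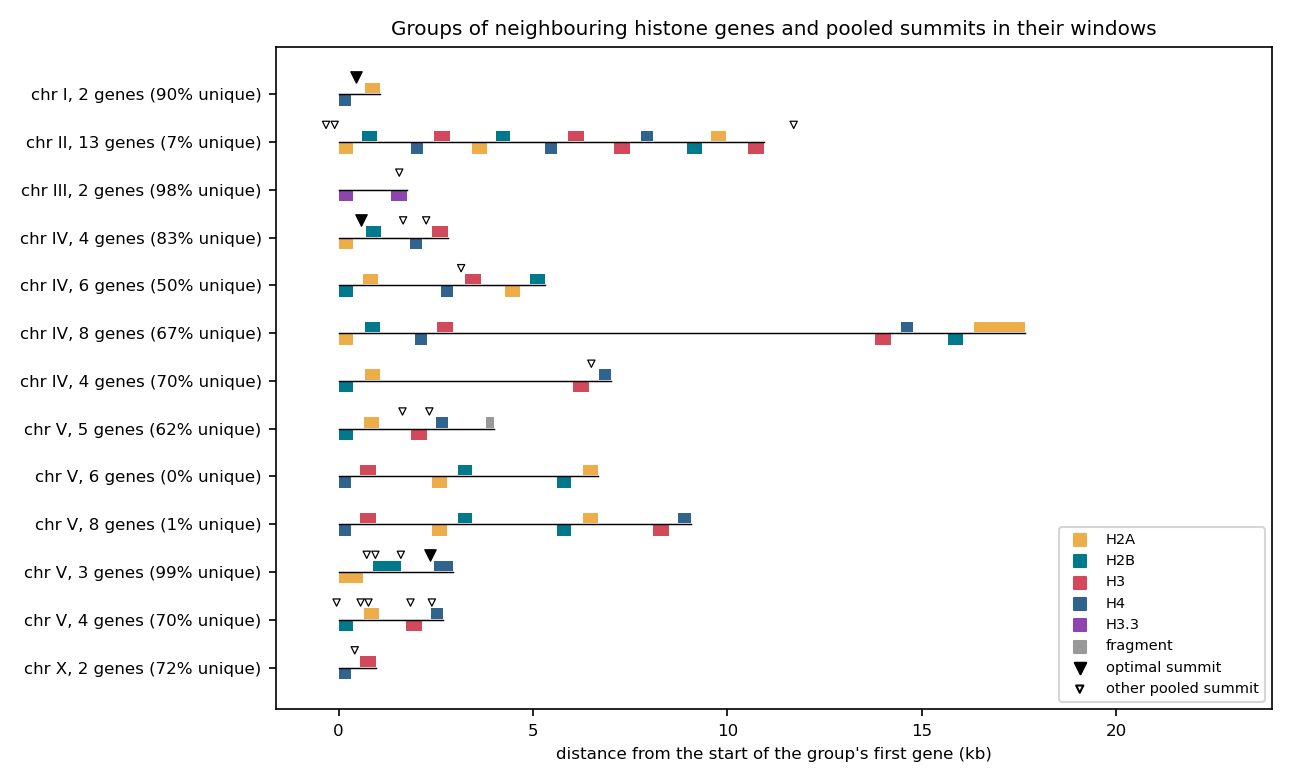
Maps of the 13 groups of neighbouring histone genes, in kb from the start of each group, with genes above the line read to the right and below it to the left, coloured by histone type; triangles mark pooled summits in their windows, and labels give the share of 36-base words that occur once. Filled triangles, the optimal summits, appear in the groups on chromosomes I, IV and V that hold his-67, his-61 and his-37, and the 3 groups with at most 7.05% of such words have no triangle inside them.

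The smaller groups carried most of the listed regions. In the group of 4 on chromosome IV with his-61/his-62, both windows had pooled summits. The group of 3 on chromosome V, with his-35, his-41 and his-37, had pooled summits in both of its windows, and so did the group of 4 with his-1 to his-4. In the group of 6 on chromosome IV, the middle pair his-31/his-32 had the 1 pooled summit: 88.0% of its words occur once, against 7.36% in each flanking pair, his-29/his-30 and his-33/his-34.

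By histone type, pooled summits lay in the windows of 8 of 16 H4 genes and 7 of 15 H3 genes, and of 4 of 17 H2A and 4 of 16 H2B genes. These are 50%, 46.7%, 23.5% and 25%, beside 35.7% of all protein-coding genes. Optimal summits lay at 2 H4, 2 H2A and 1 H2B gene. Paired genes share their summits and copies share their sequence, so the genes of a type are not independent. Where the coding sequence itself has no identical copy among the histone genes, 25 of 37 genes had a pooled summit, and all 5 genes with an optimal summit were among these.

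The classes were checked against gene structure. Both his-73 (141 coding bases) and his-39 (204) are short genes annotated only as histone-domain proteins. The list used here counts his-73 as variant and his-39 as replication-dependent. A stem-loop was sought within 150 bases after the stop codon. It needed a stem of 6 bases with at most 2 mismatched pairs and a loop of 4 with the sequence CTTT. It was found in 57 of 64 replication-dependent genes and in 2 of 8 variant genes, his-69 and his-73. A stem-loop with another loop sequence would be missed. An intron in the coding sequence was found in 3 replication-dependent genes, his-37, his-41 and his-57, and in 5 variant genes. The gene his-37 thus has an intron and no stem-loop in this search, as variant genes commonly do, although the list used here counts it as replication-dependent. Counted by the stem-loop, optimal summits lay at 4 of 59 genes with it (6.78%) and 1 of 13 without (7.69%), beside 2.81% of all protein-coding genes, and 2 of the 3 optimal windows hold a gene with it.

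The word GTGTCCC, searched on both strands (its reverse complement is GGGACAC), had the greatest excess in histone over all promoters of the words searched. The word was picked by reading histone sequences, among them those at his-37 and his-61/his-62, so its counts in histone promoters are not independent of that choice. In the 300 bases from 250 upstream to 50 downstream of the 5′ end it occurred in 51 of 72 histone genes (70.8%). Among all promoters, which include the histone ones, the share was 1.51%. The promoters of a divergent pair overlap, so the same copy of the word can count at both genes. Counting identical promoters once, which does not merge the genes of a pair, the word was in 30 of 51 (58.8%). It occurred in all 5 genes with an optimal summit, in 49 of 64 replication-dependent genes and in 2 of 8 variant genes, his-24 and his-69. Its median position in the replication-dependent genes was 114 bp upstream, with quartiles at 102 and 139 bp.

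The word CATTCGG (reverse complement CCGAATG) occurred in 44 of 72 histone promoters (61.1%), beside 2.17% of all promoters, and in 25 of the 51 distinct ones (49%). This word too was picked by reading histone sequences. Again the same copy can count at both genes of a divergent pair, also in the counts of both words below. All 44 are replication-dependent genes, with the word at a median of 136 bp upstream. Both words together occurred in 35 histone promoters and in 43 promoters of the genome, which include those 35. At least 1 of the words was in 58 of 64 replication-dependent promoters (90.6%), beside 3.46% of all promoters. The words do not overlap each other in letters or position in the sequences shown above.

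At the 3 optimal histone summits GTGTCCC lay within 50 bp each time: its centre was 2 bp from the summit at his-37, 22 bp at his-67/his-68 and 46 bp at his-61/his-62. Because the word was picked by reading sequences that include those at his-37, his-61/his-62 and his-31/his-32, its presence at these summits follows from the choice. Of the 24 pooled histone summits 6 had GTGTCCC, the others being those of his-31/his-32 (9 bp away), his-60/his-59 (16 bp) and his-24 (35 bp). CATTCGG was rarer at summits: 2 of the 24 had it within 50 bp (8.33%), those of his-61/his-62 and his-31/his-32, so 1 of the 3 optimal summits had it. Among the optimal regions outside histone windows 17 of 769 had GTGTCCC within 50 bp of the summit (2.21%), beside 0.822% of the other pooled regions. CATTCGG was at 11 of the 769 (1.43%), beside 1.11%. Most optimal regions thus lack both words. Repeated clusters without any listed region carry GTGTCCC too, as the his-51/his-52 sequence above shows. How reads from such repeated sequence were treated is not stated, so these clusters cannot show whether the word goes with a region.

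Other words were compared in the same 300-base promoters, on both strands. TATAAA (reverse complement TTTATA), the core of the TATA box, was in 47 histone promoters (65.3%; 62.7% of the distinct ones), beside 37.9% of all promoters. Matches at any position in the 300 bases count, and the same copy can count at both genes of a divergent pair. At his-8/his-7 the nearest TATAAA lies 64 bp upstream of his-8 and 234 bp upstream of his-7. CCAAT was in 39 (54.2%), beside 45.5%, and CACGTG in 1, beside 5.82%. GAGAG was in 49 (68.1%), beside 39.9%. The word of 6 letters with the greatest excess in percentage points in optimal over other pooled summits was GAGAGA, which overlaps GAGAG, at 23.3% of optimal and 10.5% of other pooled summits. By ratio other words lead it, such as CGCACA at 15.5% and 3.44%. GAGAGA was in 33 histone promoters (45.8%), beside 21.8% of all promoters. At the pooled histone summits themselves it was at 3 of 24 (12.5%). Outside histone windows it was at 23.4% of optimal and 10.5% of other pooled summits. A match is a run of letters in a window and does not show a binding site.

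GC content at the optimal histone summits, over the summit base and 50 bases on either side, was 55.4% at his-67/his-68, 47.5% at his-37 and 46.5% at his-61/his-62. The median over the 772 optimal summits was 51.5%, with quartiles at 46.5% and 55.4%. The 3 histone summits thus lie at or inside these quartiles.

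A list of 26 related genes, all matched, held 11 histone genes not named his-, 14 genes for histone chaperones or chromatin assembly, and cdl-1. Optimal summits lay in the windows of 3 (11.5%), beside 2.81% of all protein-coding genes, and pooled summits in those of 17 (65.4%), beside 35.7%. The 3 were chaf-2, a chromatin assembly factor subunit gene, with a pooled signal value of 108 and a summit 169 bp upstream, the linker histone gene hil-7, with 102 at 293 bp upstream, and htz-1, for the variant H2A.Z, with 94.7 at 309 bp upstream. The next 4 had pooled values just under the optimal threshold of 69.6: nasp-2 at 64.6 and unc-85 at 63.8, both histone chaperone genes, lin-53 at 63.0, a histone-binding protein gene, and hcp-3 at 62.8, for the centromeric H3 variant. Their summits lie 995 bp upstream at nasp-2, near the edge of the window, 531 bp upstream at unc-85, 225 bp upstream at lin-53 and 110 bp inside hcp-3. The gene cdl-1, for the protein that binds the stem-loop of histone messenger RNAs, had a pooled value of 25.6, near the list's median.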

How the data were processed

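Chromatin immunoprecipitation of tagged MADF-2 was deposited as region lists for 2 replicates of 1 group. The signal value of each region and its summit offset were made by the authors and used as deposited; per the file headers and records, the lists were called against a control alignment, which was not analysed here. For the aligner, the peak caller and the treatment of reads with several matches, nothing is stated in the labels or files, so these are not given in the sources used. The ce10 lists were not used.

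Summits were placed in 1-based ce11 coordinates, in windows of Ensembl release 115 genes, with symbols from RefSeq by position. Word uniqueness, stem-loops and motifs were computed from the RefSeq sequence with Python 3.11.15 and NumPy 2.4.6, and the counting was tested on simulated data. With 1 group and no control group no test was made, and counts stand beside those over all genes.

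The members, classes and lists were chosen with earlier results of these data known. Genes named are those with optimal summits, the variants, each group's strongest window, and those nearest the threshold; others named were chosen after their values were seen.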

Additional observations from a re-analysis of the deposited data

How the results depend on the processing

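Of 47 recomputed values 38 stayed within the set limits. With windows from 2000 bp upstream to 500 bp downstream, 5 histone windows and 1 variant gene, his-35, had an optimal summit; both added genes, his-35 and his-59, reach the regions of his-37 and his-61/his-62. With the 386 strongest of the 772 optimal regions, histone genes fell to 3 and the share of all genes to 1.44%; assigning a summit only to the nearest 5′ end also gave 3 genes. Without either replicate in turn, variant genes ranged from 0 to 1, the 1 being his-72 in replicate 1. By the stem-loop, an alternative chosen after seeing the data, 1 gene without it (his-37) had an optimal summit. Words of 50 and 100 bases raised the share that occur once over all histone windows from 44.2% to 46.7% and 50.9%. No paired analysis was possible because the samples form 1 group. How reads from repeated clusters were treated is not stated, and depth is unknown.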
